A study of Mus musculus with 21 samples.

Results

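Platelets carry a small set of surface receptors and stored chemokines that other blood cells largely lack. Described here are 9 of the genes that encode them, in marrow progenitors labelled as knockout or wild type for Stag2, a subunit of the cohesin ring. The 9 genes are Itga2b, Itgb3, Gp1ba, Gp1bb, Gp9, Gp5, Gp6, Pf4 and Ppbp. They were chosen by name as platelet receptors and chemokines, with earlier results of these data known, from a table of raw counts with 30733 genes. RNA came from mouse bone marrow that was depleted of lineage-positive cells and then sorted, in 21 libraries. The populations were LSK, the stem and multipotent progenitor gate, with 3 Stag2 knockout (KO) and 4 wild-type (WT) libraries; GMP, granulocyte and monocyte progenitors, with 4 KO and 3 WT libraries; and CFU-E, erythroid progenitors, with 4 KO and 3 WT libraries. The labels give the genotype as Stag2KO or Stag2WT, and the sources used here do not give the driver of the deletion, the strain or the age of the animals. Replicates are numbered but not said to be separate animals. All p-values below therefore rest on spread among libraries, some of which may be technical.

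The products of Itga2b and Itgb3 pair to form the fibrinogen receptor, the integrin that links activated platelets to each other. Gp1ba, Gp1bb, Gp9 and Gp5 encode the subunits of the receptor for von Willebrand factor, which tethers platelets to a damaged vessel wall, and Gp6 encodes a collagen receptor that signals through the Fc receptor gamma chain. Pf4 and Ppbp encode CXC chemokines that megakaryocytes make and pack into the alpha granules of platelets. Megakaryocytes and red cells descend from a shared progenitor, and GATA and ETS factors are known to act on many megakaryocyte genes. Itga2b is also made by early progenitors before they commit to platelets.

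The 250 bases before the annotated start were matched by symbol for 8 of the 9 genes, from RefSeq on GRCm38.p6, and Itgb3 had no entry. The 4 shown are those of the integrin chain Itga2b, of the receptor subunit Gp5, and of the chemokine genes Pf4 and Ppbp, whose promoters lie on the same strand as neighbours on chromosome 5. Capitals mark the letters GATAA and GGAAG on either strand (also read as TTATC and CTTCC), the cores that GATA and ETS factors are known to bind. Each runs 5′ to 3′ on the strand of its gene, at chr11:102469884-102470133 (minus strand), chr16:30310782-30311031 (minus strand), chr5:90772185-90772434 (plus strand) and chr5:90768268-90768517 (plus strand) in the order given.
Itga2b: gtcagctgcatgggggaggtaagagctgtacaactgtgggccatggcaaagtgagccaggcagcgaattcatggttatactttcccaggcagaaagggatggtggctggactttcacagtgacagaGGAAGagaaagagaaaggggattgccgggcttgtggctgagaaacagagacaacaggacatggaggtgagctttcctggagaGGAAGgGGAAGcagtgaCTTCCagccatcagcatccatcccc
Gp5: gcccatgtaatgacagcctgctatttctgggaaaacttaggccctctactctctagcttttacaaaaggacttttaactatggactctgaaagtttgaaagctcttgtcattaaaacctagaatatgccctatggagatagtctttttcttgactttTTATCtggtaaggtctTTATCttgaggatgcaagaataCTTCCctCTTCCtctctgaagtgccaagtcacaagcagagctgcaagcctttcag
Pf4: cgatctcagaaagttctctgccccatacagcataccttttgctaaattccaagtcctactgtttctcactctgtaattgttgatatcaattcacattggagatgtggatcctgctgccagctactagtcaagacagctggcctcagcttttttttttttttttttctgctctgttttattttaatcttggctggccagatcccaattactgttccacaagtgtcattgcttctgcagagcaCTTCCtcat
Ppbp: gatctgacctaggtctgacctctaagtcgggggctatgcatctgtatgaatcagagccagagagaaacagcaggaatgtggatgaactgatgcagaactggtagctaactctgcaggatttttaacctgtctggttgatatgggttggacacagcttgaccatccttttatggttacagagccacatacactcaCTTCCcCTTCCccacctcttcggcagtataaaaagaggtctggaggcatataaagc
The letters GGAAG stood in 7 of the 8 promoters, all but that of Gp6, and in 64.1% of 32851 mouse promoters of the same length. Itga2b held 4 copies. GATAA stood in 4 of the 8, those of Gp9, Gp5, Gp6 and Gp1ba, and in 22.6% of all promoters. The letters TGANTCA, where N is any base, are looser than the site of AP-1 and NF-E2 factors, which has C or G at N. They stood in the promoters of Gp1bb and Ppbp, in each as TGAATCA and so without C or G at N, and in 6.75% of all. TGTGGT, a RUNX core, stood in that of Gp9 alone and in 14% of all. These matches describe letters and do not show that a factor was bound.

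Depth differed by population: 22813333 to 32196233 counts per LSK library, from 1250683 to 4401993 per GMP library and from 3654667 to 5550165 per CFU-E library. In GMP the KO libraries were all shallower, at up to 3471881 counts, than the WT libraries, at 3732769 or more. Levels are given in counts per 1000000 (CPM), scaled within each population by edgeR's TMM factors. GMP and CFU-E libraries counted 3′ ends and LSK libraries full transcripts, so LSK levels are not set against the others. The targeted gene, Stag2, was at 41.3 to 75.8 CPM in CFU-E KO and 125.1 to 159.9 CPM in CFU-E WT, and its groups also separated in LSK. In GMP its libraries overlapped, and GMP KO 4, at 150.2 CPM, lay above 2 of the 3 WT libraries, so a GMP library labelled KO is named by its label only. CFU-E libraries were on 2 flow cells: KO 1, WT 1 and WT 2 on the one called A here, and KO 2, KO 3, KO 4 and WT 3 on the other, B. The CFU-E test held the flow cell as a term.

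In CFU-E, both chains of the fibrinogen receptor, 1 subunit of the receptor for von Willebrand factor and 1 granule chemokine rose in the Stag2 KO libraries. Of the 9 genes, 8 had enough counts to be tested, all 8 had a positive log2 fold change, and 4 rose past the threshold: Itgb3 3.68-fold, Itga2b 2.95-fold, Gp5 2.77-fold and Ppbp 10.9-fold. Over all 10170 genes tested in CFU-E, 1.06% passed the threshold in either direction and 0.354% did so as rises. The threshold was a Benjamini-Hochberg adjusted p under 0.05 in edgeR's quasi-likelihood test, adjusted over all tested genes. The median log2 fold change of the 8 tested genes was 1.62, beside 0.00 over all tested genes.

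Both chains of the fibrinogen receptor rose. Itga2b, the alpha chain, stood at 152.9, 257.8, 120.7 and 140.7 CPM in KO 1 to KO 4 and at 38.4, 70.4 and 56.0 CPM in WT 1 to WT 3. The lowest KO library lay well above the highest WT library, and KO 2 stood apart above the other KO libraries. The log2 fold change was 1.56 ± 0.287 (SE; edgeR adjusted p = 0.0163). Itgb3, the beta chain, was at 46.9, 55.3, 35.3 and 31.1 CPM in KO and at 8.01, 17.1 and 11.1 CPM in WT (log2 fold change 1.88 ± 0.299, adjusted p = 0.0061). Its groups did not overlap either, and KO 2 and WT 2 were again the highest of their groups.

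Of the subunits of the receptor for von Willebrand factor, Gp5 rose and the other 3 did not pass the test. Gp5 was at 119.5, 184.4, 104.4 and 112.0 CPM in KO and at 32.3, 65.6 and 42.5 CPM in WT, without overlap (log2 fold change 1.47 ± 0.279, adjusted p = 0.0201). Gp1bb, which is bound to the ligand-binding chain by a disulfide bond, was at 9.99, 14.9, 5.36 and 7.72 CPM in KO and at 0.471, 5.64 and 2.71 CPM in WT. Its groups overlapped, because WT 2 lay above KO 3 (log2 fold change 1.71 ± 0.599, adjusted p = 0.283). Gp9, the subunit needed for the complex to reach the surface, was at 8.15, 9.72, 4.13 and 4.52 CPM in KO and at 4.95, 2.72 and 2.71 CPM in WT, so that WT 1 exceeded KO 3 and KO 4 (1.14 ± 0.451, adjusted p = 0.379). Gp1ba, the chain that binds von Willebrand factor, was measured by few reads, 11 to 28 counts in KO and 6 to 10 in WT. Its levels were 3.06, 5.23, 4.54 and 2.93 CPM in KO and 1.41, 1.17 and 2.71 CPM in WT, without overlap but without passing the test (0.92 ± 0.466, adjusted p = 0.568).

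The collagen receptor gene Gp6 was too low to be tested. It had 9, 6, 0 and 3 counts in KO 1 to KO 4 and 0, 4 and 0 counts in WT 1 to WT 3. A count of 0 allows a level of up to 0.619 CPM in KO 3, 0.707 CPM in WT 1 and 0.812 CPM in WT 3, for counting error only. A difference in Gp6 was not detectable at this depth.

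Both granule chemokines were higher in every KO library than in any WT library, and one of them passed the test. Ppbp was at 35.3, 41.3, 6.60 and 19.7 CPM in KO and at 1.41, 5.06 and 1.89 CPM in WT (log2 fold change 3.45 ± 0.611, adjusted p = 0.0128). The margin between the groups was narrow, since KO 3 was close to WT 2, and the KO libraries themselves spanned the widest relative range among the 4 genes that passed. Pf4 was at 249.1, 546.9, 233.5 and 312.9 CPM in KO and at 57.96, 153.1 and 84.4 CPM in WT. Its log2 fold change was 1.68 ± 0.382, just outside the threshold (adjusted p = 0.0578), and its call varied with the fit. It passed with limma-voom (0.0384) and with no flow cell term (0.0119), and it did not pass with DESeq2 (0.149) or with robust moderation (0.421). Without WT 3 the fit compared KO 1 with WT 1 and WT 2 only, and the log2 fold change of Pf4 was 1.22. Every KO library lay above every WT library for 6 of the 9 genes, Itga2b, Itgb3, Gp5, Gp1ba, Pf4 and Ppbp, all of them tested. Over all tested genes, 6.10% had that arrangement.

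**Figure D1:**
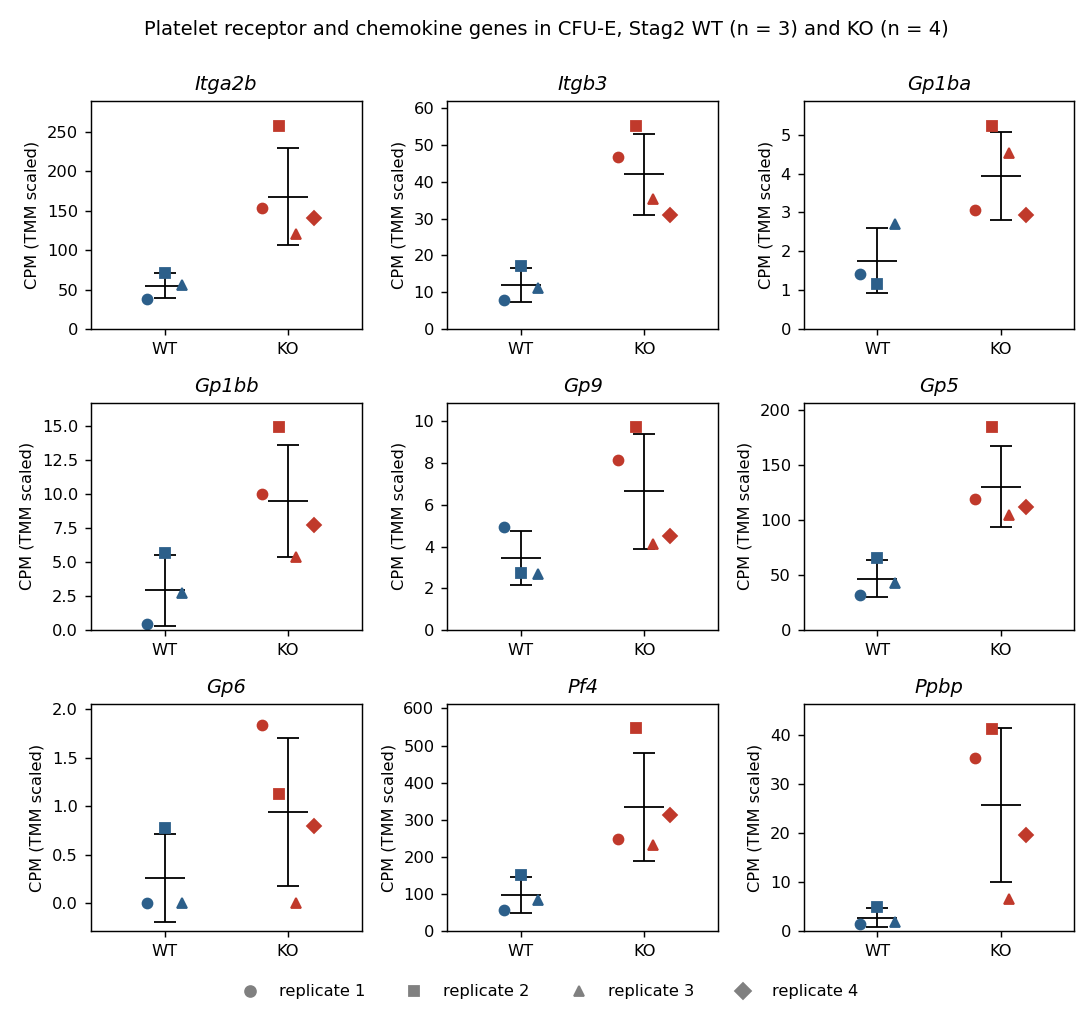
Level of each of the 9 genes in the 7 CFU-E libraries, in CPM scaled by TMM (linear axes from 0, except for Gp6, where the error bar runs below 0). Symbols are libraries by replicate number, and the black bar with whiskers is the mean ± SD of 3 WT and 4 KO libraries; KO 2, the red square, is the highest library in 8 of the 9 panels, and WT and KO do not overlap in 6 panels.

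The 2 flow cells gave the direction separately. Within flow cell A, the log2 fold changes of KO 1 against WT 1 and WT 2 were 1.46 for Itga2b, 1.86 for Itgb3, 1.26 for Gp5, 1.21 for Pf4 and 3.37 for Ppbp. Within flow cell B, those of KO 2, KO 3 and KO 4 against WT 3 were 1.63, 1.87, 1.65, 2.11 and 3.56 for the same genes. With 1 library in one of the arms of each flow cell, that library is assumed to vary like the others. KO 1 was the only KO library on flow cell A, and WT 3 the only WT library on flow cell B. With the flow cell term, a fit without KO 1 compared KO 2, KO 3 and KO 4 with WT 3 only. A fit without WT 3 compared KO 1 with WT 1 and WT 2 only. Neither fit kept the calls, although the fits within a flow cell, comparing the same libraries, called at least some of the genes. Because the opposite arm dropped out too, the leave-out fits cannot tell whether KO 1 or WT 3 was itself influential. Without KO 1 or without WT 3, the log2 fold changes of the 4 genes that had passed stayed between 1.27 and 3.56. With no flow cell term, chosen after seeing the data for these subsets, 5 of the 9 genes passed without KO 1 and 3 without WT 3. Moderation of the variances by the robust option of edgeR left only Itgb3 past the threshold (adjusted p = 0.00633), with 0.137 for Itga2b, 0.108 for Gp5 and 0.206 for Ppbp. Without WT 2, the highest WT library, the log2 fold change of Ppbp was 4.07.

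The genes kept nearly the same order of libraries. KO 2 was the highest of the 7 CFU-E libraries for 8 of the 9 genes, and for Gp6 it was KO 1. WT 2 was the highest WT library for Itga2b, Itgb3, Gp5, Gp1bb, Gp6, Pf4 and Ppbp. Across the 7 libraries, the Pearson correlation of a gene's log2 level with the mean of the other tested platelet genes was 0.995 for Itga2b, 0.989 for Gp5, 0.979 for Itgb3, 0.968 for Pf4, 0.950 for Ppbp and 0.905 for Gp1bb. It was lower for Gp1ba and Gp9, at 0.714 and 0.667. These values describe 7 libraries of 2 genotypes. All genes were read from the same libraries, with the same depths and flow cells, and the values partly restate the difference between KO and WT. Summed over the 9 genes, the level was 514 to 1117 CPM in KO and 145 to 322 CPM in WT. KO 2 also had the lowest Stag2, 41.3 CPM. Among the other KO libraries, however, the sum was higher where Stag2 was higher. In KO 3, KO 1 and KO 4, Stag2 was at 66.8, 73.0 and 75.8 CPM, and the sums were 514, 627 and 632 CPM. A relation of the sum to Stag2 within a genotype was not tested.

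In GMP, the platelet genes were near the floor or did not differ detectably. Only Itga2b, Itgb3 and Pf4 could be tested there, and 0 of the 3 passed in edgeR, DESeq2 or limma-voom, or had an unadjusted p under 0.05. Over all 9969 genes tested in GMP, 1.45% passed in edgeR and 17.9% had an unadjusted p under 0.05. Itga2b was at 30.5, 32.6, 34.0 and 22.7 CPM in KO and at 18.7, 22.1 and 41.9 CPM in WT (log2 fold change 0.12 ± 0.29, adjusted p = 0.848). Itgb3 was at 13.4, 12.4, 16.6 and 20.6 CPM in KO and at 11.7, 18.4 and 12.98 CPM in WT (0.15 ± 0.288, adjusted p = 0.81). The WT libraries spanned the KO libraries for Itga2b and overlapped them for Itgb3. Pf4 varied within genotype, at 8.18, 15.7, 3.20 and 3.38 CPM in KO and 0.468, 14.1 and 6.36 CPM in WT (0.16 ± 0.692, adjusted p = 0.92). The sign for Itga2b and Pf4 turned when single libraries were left out, Itga2b to -0.10 without WT 1 and -0.02 without WT 2, and Pf4 to -0.60 without KO 2 and -0.41 without WT 1. The other 6 genes had at most 14 counts in any GMP library. Gp6 had 0 counts in all 3 GMP WT libraries, which allows up to 0.703, 0.862 and 0.795 CPM there.

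In LSK, 0 of 8 tested genes passed the threshold, although the mean levels of both integrin chains and of Gp5, Gp9 and Gp1ba were higher in KO libraries than in WT libraries. Over all 17664 genes tested in LSK, only 0.0793% passed. Of the 8, 5 had a positive log2 fold change and 3 a negative one, and 4 had an unadjusted p under 0.05, beside 7.88% of all tested genes. The median was 0.62, beside 0.00 over all tested genes. Itgb3 was at 31.99, 29.2 and 37.0 CPM in KO 1 to KO 3 and at 20.6, 11.7, 16.3 and 9.25 CPM in WT 1 to WT 4, without overlap (1.18 ± 0.262, adjusted p = 0.219). Gp5 was at 45.4, 60.7 and 39.7 CPM in KO and at 35.4, 15.01, 21.7 and 14.4 CPM in WT, also without overlap (1.17 ± 0.315, adjusted p = 0.316). Over all genes tested in LSK, 3.26% had every KO library above every WT library. DESeq2 called these 2 genes (adjusted p = 0.00185 and 0.0178) and 1.94% of the genes it adjusted, limma-voom neither, and edgeR called both without WT 1 (0.0411 and 0.0327).

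Itga2b in LSK was at 226.7, 208.9 and 157.5 CPM in KO and at 175.4, 97.6, 127.3 and 112.7 CPM in WT, where WT 1 lay above KO 3 (0.62 ± 0.212, adjusted p = 0.475). Gp9 had a log2 fold change of 0.62 ± 0.232 and Gp1ba one of 0.71 ± 0.4 (adjusted p = 0.527 and 0.777). Both groups of libraries overlapped. The values of both chemokines were negative there. Pf4 ranged from 8.96 to 35.1 CPM in KO and from 7.19 to 40.3 CPM in WT (-0.32 ± 0.629, adjusted p = 0.925), and Ppbp from 0.314 to 1.103 CPM and from 0.490 to 1.46 CPM (-0.34 ± 0.517, adjusted p = 0.907). Without WT 2 and WT 4, left out together after seeing the data, these became 0.49 and 0.24, so LSK gives no stable direction for the chemokines. Gp6 had 0 to 3 counts per LSK library, and 2 KO libraries and 1 WT library were at 0.

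Gp1bb had a negative log2 fold change in LSK, -0.76 ± 0.339 (edgeR adjusted p = 0.642), where those of Gp9, Gp5 and Gp1ba were positive. A difference between these genes was not tested. Gp1bb was at 4.33, 2.66 and 2.72 CPM in KO and at 4.60, 8.76, 4.32 and 4.34 CPM in WT, so WT 2 stood apart above the rest. KO 1 lay just above WT 3, so the groups overlapped. Gp1bb overlaps Septin5 in the RefSeq annotation of GRCm38.p6. The sources used here do not give the strand setting of the counting, and reads of overlapping genes are uncertain. The Septin5 entry of the table, which stands there as the date that its symbol was turned into, was also highest in LSK WT 2, at 382 counts and 15.9 CPM. The other WT libraries were at 2.54, 6.08 and 7.08 CPM and the KO libraries at 2.55 to 3.45 CPM. In CFU-E and GMP it had at most 4 counts in any library.

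**Figure D2:**
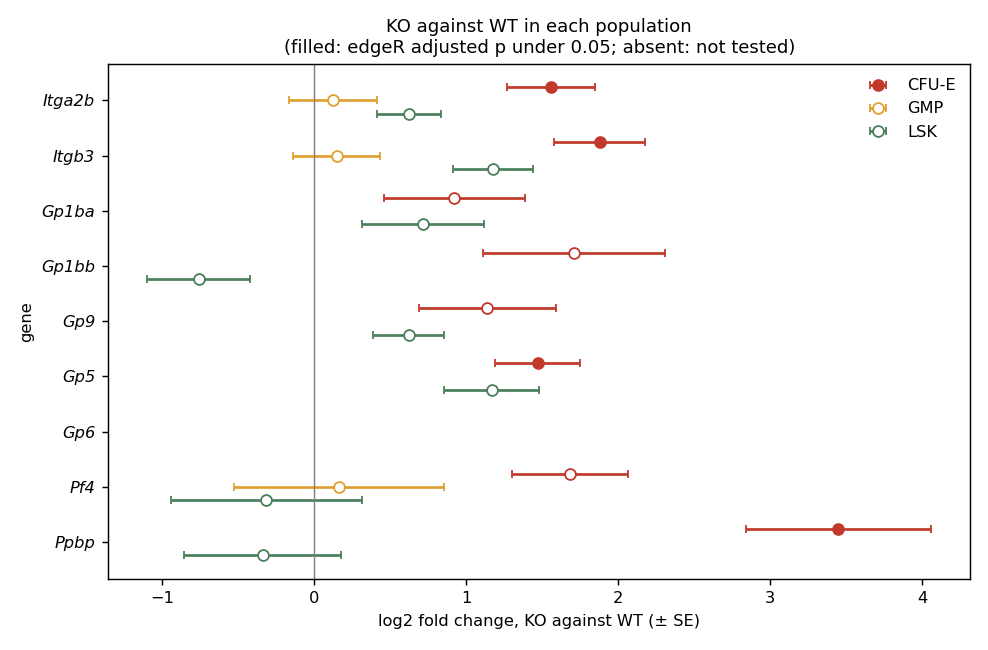
Log2 fold change of KO against WT with its standard error for each gene in CFU-E (4 KO, 3 WT), GMP (4 KO, 3 WT) and LSK (3 KO, 4 WT). Filled points passed an edgeR adjusted p under 0.05, which 4 genes did, all in CFU-E; a gene with no point was not tested in that population.

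Whether the KO effect differed between populations was tested as an interaction. The names of the count columns end alike in GMP and CFU-E for libraries of the same genotype and replicate number. Whether such libraries share a source is not said, and the fits treated all libraries as independent. The CFU-E and LSK estimates rest on different kits, and the interactions share libraries with the comparisons above. For CFU-E minus GMP, 0 of 8 tested genes passed in edgeR, 4 had an unadjusted p under 0.05, and DESeq2 called 1, Itgb3 (adjusted p = 0.0269). Over all 11006 tested genes, 0.445% passed in edgeR and 13.6% had an unadjusted p under 0.05, and DESeq2 called 1.29% of the genes it adjusted. Itgb3 was nearest, with a difference in log2 fold change of 1.81 ± 0.43 (adjusted p = 0.0737), followed by Itga2b at 1.51 ± 0.447 (0.166) and Ppbp at 2.76 ± 0.973 (0.256). The low GMP counts limit these differences, and that of Gp5 was 0.52 ± 0.82 (0.791). For CFU-E minus LSK, 0 of 9 passed in edgeR, 4 had an unadjusted p under 0.05, and DESeq2 called 1, Ppbp (adjusted p = 0.04). Over all 16474 tested genes, 0.0425% passed in edgeR and 7.40% had an unadjusted p under 0.05, and DESeq2 called 0.678% of the genes it adjusted. Ppbp had the largest difference of the 9, 3.85 ± 0.94 (adjusted p = 0.226). Gp6 followed at 3.32 ± 1.96 on few counts (0.782), then Gp1bb at 2.53 ± 0.821 and Pf4 at 2.05 ± 0.902 (0.422 and 0.648). The receptor genes with positive values in both populations had smaller differences, 0.98 ± 0.439 for Itga2b, 0.75 ± 0.459 for Itgb3 and 0.35 ± 0.502 for Gp5 (0.653, 0.798 and 0.976). With no low-count filter, edgeR passed 4 genes for CFU-E minus GMP, Itga2b, Itgb3, Pf4 and Ppbp (adjusted p = 0.00463, 0.0038, 0.017 and 0.0149), and 1 for CFU-E minus LSK, Ppbp (0.0383). With the filter, Itgb3 passed for CFU-E minus GMP with no flow cell term (0.0434) and without CFU-E WT 2, GMP KO 4 or GMP WT 1 (0.0441, 0.0315 and 0.0485).

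Wild-type libraries show which of the genes were already high in erythroid progenitors. Gp5 and Pf4 were higher in WT CFU-E than in WT GMP, and the integrin chains did not pass. Same-numbered GMP and CFU-E libraries were treated as independent in this test too. The test scaled both populations together, while the CPM given were scaled within each population. Gp5 was at 46.8 ± 17.1 CPM (SD, n = 3) in WT CFU-E and 1.17 ± 0.642 CPM (n = 3) in WT GMP, a log2 fold change of 5.04 ± 0.451 (edgeR adjusted p = 1.59e-09). Pf4 was at 98.5 ± 49.1 and 6.97 ± 6.83 CPM (3.61 ± 0.524, adjusted p = 3.5e-06). These were 2 of 5 tested genes, while 46.9% of 10329 tested genes passed between the populations and 21.9% did so as higher in CFU-E. Gp9 was at 3.46 ± 1.29 CPM in WT CFU-E and 1.04 ± 0.961 CPM in WT GMP (1.46 ± 0.625, adjusted p = 0.0584). Itga2b had a log2 fold change of 0.63 ± 0.326 and Itgb3 one of -0.54 ± 0.37 (0.12 and 0.246). CFU-E WT 3 was the only library on flow cell B in this comparison, so the flow cell term took it up. The fold changes between the populations therefore rested on CFU-E WT 1 and WT 2. Without GMP WT 3, 4 and not 2 genes passed, Itga2b among them (edgeR adjusted p = 0.00663). Without CFU-E WT 1 or WT 2, a single CFU-E library informed the fit. The log2 fold change was then 1.04 for Itga2b without WT 1 and -1.24 for Itgb3 without WT 2. The orders that follow use CPM scaled within each population and are therefore approximate. From lowest to highest, the group means of Itga2b among libraries of the same kit ran from GMP WT and GMP KO, which overlapped, to CFU-E WT and then CFU-E KO. CFU-E WT 1 lay below GMP WT 3, and CFU-E KO stood apart. For Itgb3 the GMP WT, GMP KO and CFU-E WT libraries all overlapped, and only CFU-E KO stood apart.

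**Figure D3:**
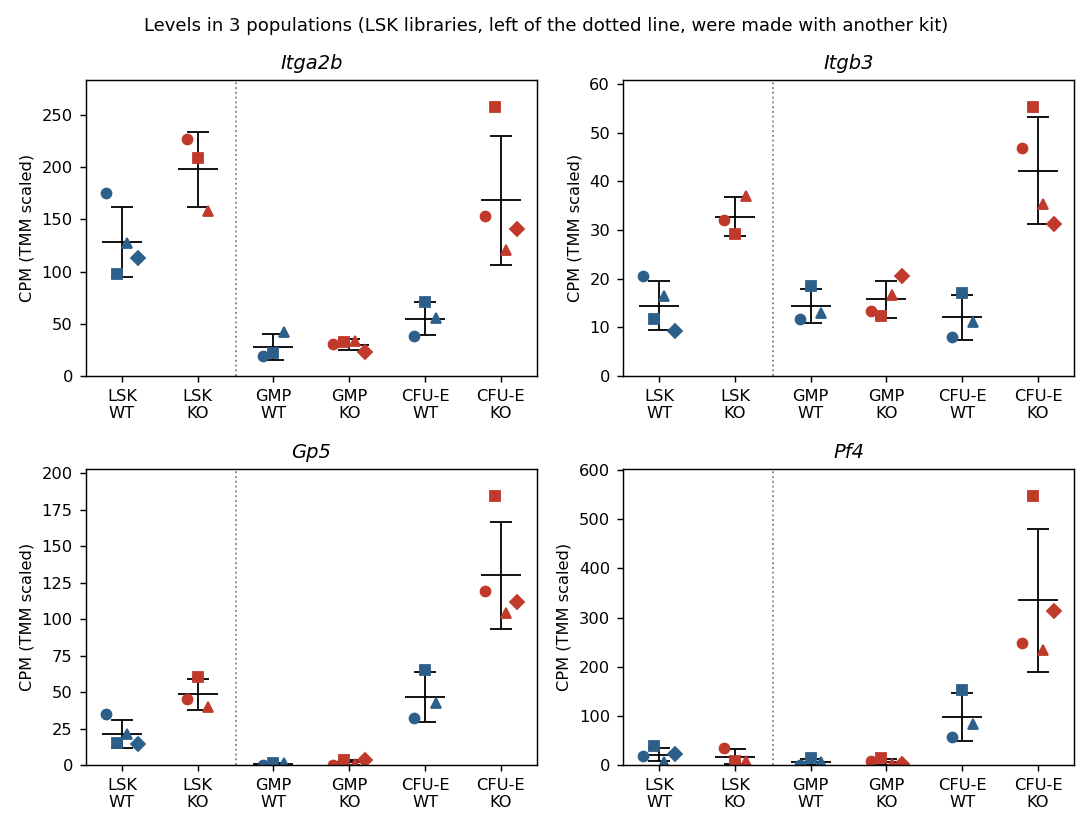
Levels of Itga2b, Itgb3, Gp5 and Pf4 in all 21 libraries, in CPM scaled by TMM within each population, with the mean ± SD of each group (linear axes from 0). Heights are therefore only roughly comparable between GMP and CFU-E. LSK libraries, made with another kit, are left of the dotted line; the CFU-E KO libraries of Itgb3, at 31.1 to 55.3 CPM, lie above all GMP and CFU-E WT libraries, while those of Gp5 and Pf4 start from WT CFU-E levels that already exceed GMP.

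A minority of the genes that act with these receptors also rose in CFU-E. The lists used are of other platelet surface receptors, of signalling below the receptors, of granule cargo and formation, of megakaryocyte transcription factors and of the megakaryocyte cytoskeleton. Of 104 genes, 103 are in the table and Syk was not analysed here. Of these, 82 were tested, 8 rose and 0 fell, while 0.354% of all genes tested in CFU-E rose. That share also stands beside each list below. Their median log2 fold change was 0.53, and 71 of the 82 were positive, against 50.7% of all tested genes. In GMP, 1 of 73 tested list genes rose and 2 fell, beside 1.45% of all tested genes past the threshold, with a median of -0.02. In LSK, 0 of 100 passed, beside 0.0793% of all tested genes, with a median of 0.06.

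Among the other surface receptors, 3 of 19 tested genes rose in CFU-E, with a median of 1.15. F11r, the junctional adhesion molecule of platelets, rose to 9.69 ± 5.77 CPM (SD, n = 4) from 0.428 ± 0.304 CPM (n = 3), where it had few counts (log2 fold change 4.17 ± 0.677, edgeR adjusted p = 0.00704). Cd36, a thrombospondin and fatty acid receptor that red cell precursors also carry, rose 4.19-fold (adjusted p = 0.00418), and Esam, an adhesion molecule at platelet contacts, 5.45-fold (adjusted p = 0.0285). Treml1, an alpha granule receptor, was at 84.9 ± 41.2 and 23.9 ± 14.5 CPM (log2 fold change 1.73, adjusted p = 0.0954). The widely made integrin chain Itgb1 had a log2 fold change of 0.19 (adjusted p = 0.708). P2ry1, an ADP receptor, was negative at -0.96 (adjusted p = 0.0952). Treml1, Itgb1 and P2ry1 are named after their values were seen.

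Below the receptors, 2 of 22 tested signalling genes rose, with a median of 0.50. Plek, or pleckstrin, a major substrate of protein kinase C in platelets, rose to 69.6 ± 15.2 from 20.6 ± 6.55 CPM (adjusted p = 0.00468), and Rgs18, which limits G protein signals, rose 1.96-fold (adjusted p = 0.0426). Of 15 tested granule genes, 2 rose, with a median of 0.77. They were F5, coagulation factor V, at 7.42-fold (adjusted p = 0.0392), and Rab27b, a GTPase of granule secretion, at 3.24-fold (adjusted p = 0.0296). Vwf, which encodes the ligand of the receptor formed by Gp1ba, Gp1bb, Gp9 and Gp5, was at 29.9 ± 9.05 CPM in KO and 18.2 ± 3.86 CPM in WT (log2 fold change 0.70, adjusted p = 0.378). Of 8 tested cytoskeleton genes, 1 rose, the actin cross-linker Actn1 (4.21-fold, adjusted p = 0.0109), with a median of 0.86. Tubb1, the platelet beta tubulin, had 0 counts in every CFU-E and GMP library, and is named after its value was seen. Actn1 fell in GMP KO, with a log2 fold change of -1.33 (adjusted p = 0.00257).

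Of 18 tested megakaryocyte transcription factors, 0 passed in CFU-E, with a median log2 fold change of 0.18. Gata1, which both red cells and megakaryocytes need, was at 233.1 ± 20.3 CPM in KO and 216.8 ± 10.6 CPM in WT, a log2 fold change of 0.06 (adjusted p = 0.94). Fli1, the ETS factor of the megakaryocyte lineage, was at 17.5 ± 6.75 and 8.22 ± 3.07 CPM (0.84, adjusted p = 0.581). Runx1 had a log2 fold change of 0.08, Nfe2 one of 0.16 and Gfi1b one of -0.17 (adjusted p = 0.93, 0.822 and 0.779). Vwf and these 5 factors are named after their values were seen. Of the other CXC chemokines, 0 of 10 could be tested in CFU-E, and Cxcl1, Cxcl3, Cxcl10 and Cxcl15 had 0 counts in every CFU-E library.

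Markers of other cells were summed in the same CFU-E libraries. Erythroid markers, 14 genes of the table, summed to 9879 to 10112 CPM in KO and 8714 to 9602 CPM in WT, so that every KO library lay above every WT library, while 0 of 13 tested genes passed (median -0.05). Klf1, the erythroid regulator, was at 651.9 ± 58.5 and 660.9 ± 83.6 CPM in CFU-E and at 5.60 ± 1.43 and 5.62 ± 3.54 CPM in GMP, in KO and WT. Mpo, a granule enzyme of myeloid progenitors, was at 14859 ± 5249 and 19978 ± 5733 CPM in GMP and at 46.7 ± 24.6 and 46.5 ± 14.8 CPM in CFU-E. Ly6a, a marker of the LSK gate, was at 159.0 ± 45.1 and 118.4 ± 46.1 CPM in LSK. Klf1, Mpo, Ly6a, Mllt3 and Kit are named after their values were seen. Granulocyte and monocyte markers summed to 237 to 749 CPM in KO and 272 to 573 CPM in WT, all 10 tested genes were positive, 0 passed, and the median was 0.47. Stem and multipotent progenitor markers summed to 272 to 329 CPM in KO and 257 to 270 CPM in WT, with 0 of 7 past the threshold and a median of 0.40. Much of that sum was Mllt3, at 195.8 ± 13.4 CPM in KO and 142.5 ± 10.8 CPM in WT, while Kit was at 55.3 ± 14.4 and 69.8 ± 19.4 CPM. Mast cell and basophil markers summed to 5.78 to 9.72 CPM in KO and 4.33 to 6.13 CPM in WT, with Fcer1a, Cma1 and Gzmb at 0 in every library. Lymphoid markers summed to 5.10 to 10.8 CPM in KO and 6.42 to 11.1 CPM in WT, with Cd79a at 0. The part of these sums in the platelet genes was not tested. In bulk RNA, more cells of a type and more RNA per cell cannot be told apart.

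**Figure D4:**
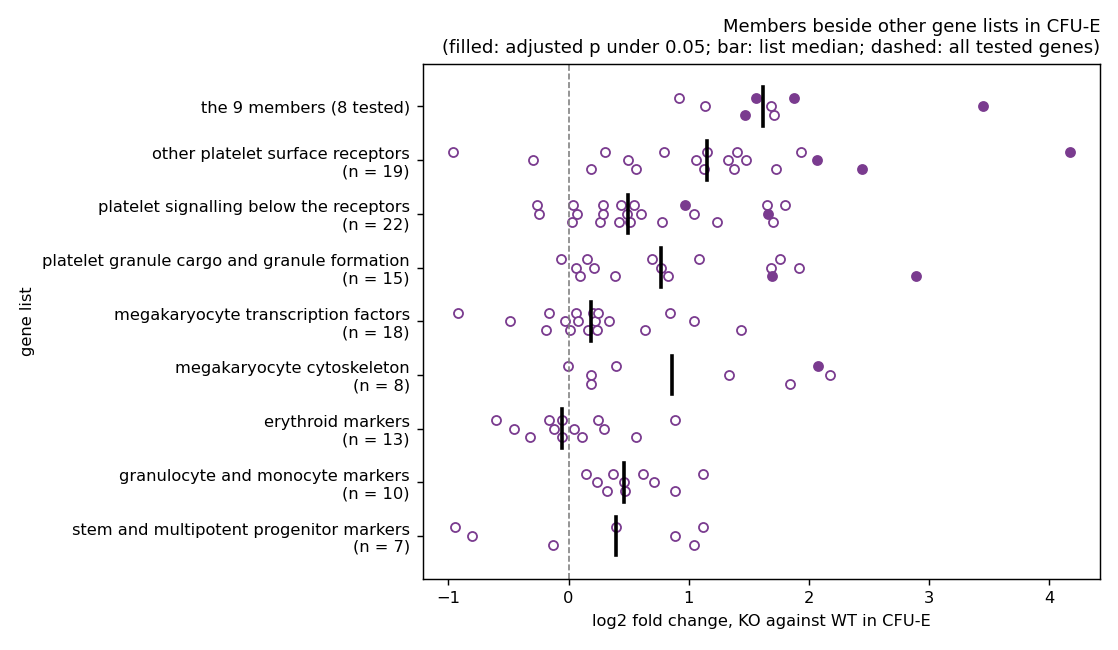
Log2 fold change of KO against WT in CFU-E for each tested gene of the 9 platelet genes and of 8 other lists, 1 point per gene. Filled points passed an edgeR adjusted p under 0.05, black bars are list medians, and the dashed line is the median of all 10170 tested genes; the platelet receptors and chemokines have a median of 1.62, the other surface receptors 1.15 and the erythroid markers -0.05.

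Among 7922 genes outside the 9 with a mean of at least 5 CPM, the 10 whose log2 level over the 7 CFU-E libraries was most like the mean of the tested platelet genes were ranked by Pearson correlation. Tpm4 and Mrvi1 led with 0.995 each, followed by Gng11 and Prkca with 0.987, Ndufs4 with 0.986, Tprgl, Pygl and Sdpr with 0.975, and Prkag2 and F11r with 0.974. Of the 10, Tpm4, Gng11 and F11r were in the platelet and megakaryocyte lists. Only F11r passed the test of KO against WT. Likeness in order did not mean likeness in size: Ndufs4, a subunit of respiratory complex I, was at 126.5 ± 8.12 CPM in KO and 104.1 ± 2.69 CPM in WT (log2 fold change 0.28), while Mrvi1 was at 22.9 ± 11.04 and 5.64 ± 2.55 CPM (1.94).

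In the RefSeq gene order of GRCm38.p6, the nearest tested protein-coding gene on each side of each platelet gene, other than the 9 themselves, was taken, which gave 16 genes, with up to 10 genes between. In CFU-E, 0 of the 16 rose, 2 fell, and the median log2 fold change was -0.12. Over all genes tested there, 1.06% passed in either direction. Ppbp and Pf4 are adjacent to each other. Of the chemokine genes that flank them, Cxcl3 had 0 counts in every CFU-E library, and Cxcl5, too low to be tested, was at 0.408 to 2.13 CPM in KO and at 0 to 0.389 CPM in WT, on at most 8 counts. Hes1, a Notch target that represses transcription, is the nearest tested gene before Gp5, with 2 genes between, and fell to 0.719 ± 0.407 CPM (SD, n = 4) from 4.77 ± 1.06 CPM (n = 3; log2 fold change -2.63 ± 0.531, adjusted p = 0.0287). Parm1, the nearest tested gene after Pf4, with 9 genes between, fell to 1.18 ± 1.03 from 17.8 ± 1.73 CPM (-3.75 ± 0.471, adjusted p = 0.00107). Hes1 and Parm1 are named after their values were seen.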

How the data were processed

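RNA of 21 libraries was deposited by the authors as whole-number counts per gene, with no normalization (30733 genes, of which 82 had no count, and no entry lacked a gene name). STAR 2.4, HTSeq 0.6.1, DESeq2 and the build mm9 are listed, without their role, per the submitters' processing notes; the sources used here give neither annotation nor strand setting. Per the labels' protocols, TRIzol was used for extraction, SMARTer on full transcripts for LSK, and SMART-Seq2 with reading of 3′ ends for GMP and CFU-E. No 2 libraries of a group agreed within sampling noise (chi-square per degree of freedom at least 4.03).

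Groups came from the labels, and flow cells from the descriptions, which name none for LSK. KO was compared with WT in each population with edgeR 4.0.16 in R 4.3.3, using filterByExpr (minimum count 10, minimum total 15), TMM, glmQLFit and the quasi-likelihood test, with Benjamini-Hochberg adjustment over all tested genes, at 0.05. To obtain a standard error, the log2 fold change was divided by the root of the F statistic. The flow cell was a term wherever CFU-E took part. A count of 0 was given a floor of 3 counts, and floors cover counting error only. The scripts were tested on simulated counts.

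The 9 genes and all gene lists were chosen with earlier results of these data known. Named are the 9 genes, Stag2, up to 3 genes with the smallest p among those past the threshold in CFU-E from each list, and the 10 genes most like the 9; others are said to be named after their values were seen. Likeness used log2 CPM with a prior count of 2. Promoters and gene order came from RefSeq on GRCm38.p6, another build than that of the counts, so no coordinate was joined to a count. Alternatives were RLE factors, DESeq2 1.42.0, limma-voom (limma 3.58.1), a robust fit, no filter, a filter of 5 CPM in 3 libraries, a replicate block, single flow cells, no flow cell term, and each library left out.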

Additional observations from a re-analysis of the deposited data

Results flagged for a closer look

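In groups of 4 libraries, the gap of the highest or lowest library to its nearest neighbour was set against the range of the group, for 30 groups of the 9 genes and Stag2. Chance gives about 1 in 20 groups a gap above Dixon's critical value, and 2 groups had one. Gp1bb in LSK WT 2 was at 8.76 CPM, far above the next library at 4.60 CPM, a gap of 0.936 of the range. Gp1ba in GMP KO 3 was at 1.16 CPM, below the next library at 2.23 CPM, a gap of 0.885 of the range, on 3 to 8 counts per GMP KO library.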

How the results depend on the processing

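In CFU-E, 4 of the 9 genes passed. The count was 1 with robust moderation, 6 with no low-count filter, and 0 to 5 when single libraries were left out. The replicate block gave 3 with the flow cell term (Itga2b 0.0583 and Ppbp 0.0785 lost, Pf4 0.0217 gained) and 5 without it. Ppbp was also lost with limma-voom (adjusted p = 0.102). Ppbp and Itga2b were lost within flow cell B, where WT 3 was the only WT library, but not within flow cell A, where KO 1 was the only KO library. The lowest counts, without KO 1 or without WT 3, likewise came from fits with a single library in 1 arm. The deviations of same-numbered libraries correlated weakly and with both signs (r from -0.18 to 0.25), so the numbers were not taken to pair them, and 3 of 6 in CFU-E, 3 of 6 in GMP and 2 of 6 in LSK correlated best with their own number. In GMP the count was 0 in every alternative run, the replicate block included. In LSK it was 2 with DESeq2, 0 with the replicate block, and 0 to 2 with single libraries left out. For CFU-E minus GMP it was 1 with DESeq2, 4 with no filter, 1 with no flow cell term, and 0 to 1 with single libraries left out. For CFU-E minus LSK it was 1 with DESeq2 and 1 with no filter. For WT CFU-E against WT GMP it ran from 2 to 4 with single libraries left out. Without CFU-E WT 1 or WT 2 that fit rested on a single CFU-E library. Signs turned only for values that had not passed: in GMP, Itgb3 was at -0.027 with the replicate block, and with single libraries left out Itga2b ran from -0.10 to 0.55 and Pf4 from -0.60 to 1.18. In LSK, with single libraries left out, Pf4 ran from -1.29 to 0.14 and Ppbp from -0.67 to 0.033, and without WT 2 and WT 4 they were at 0.49 and 0.24. The cause of these changes was not tested. Over all genes in CFU-E, 108 passed, and from 22 to 333 in the alternatives; of the platelet list genes 8 passed, and from 0 to 27. In GMP the list count ran from 1 to 5, in LSK from 0 to 11. Low counts limit Gp6 in every population and 6 of the 9 genes in GMP.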
